A study of Mus musculus with 12 samples.

Results

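Translation initiation factor genes were examined in mouse kidney after rhabdomyolysis-induced acute kidney injury (RIAKI). The members were all rows annotated as protein coding whose gene symbol begins with Eif followed by a digit from 1 to 6, which gave 55 genes of 41740 rows, 21849 of them protein coding. Of these, 54 had at least 10 counts summed over the 12 libraries and were tested. The remaining member, Eif4e1b, a relative of Eif4e known from germ cells, had 0 exon reads and 1 intron read in all 12 libraries together. At a floor of 3 counts per library, 0 exon reads allow a level of up to 1.22 to 2.51 CPM (counts scaled to 1 common library size). A long noncoding RNA row with a matching name was not a member. By factor, the members were 5 genes of eIF1, 6 of eIF2, 5 of its exchange factor eIF2B, 4 kinases of eIF2, 14 of eIF3, 5 of the helicase eIF4A and its helpers, 4 of the cap-binding protein eIF4E, 3 of the scaffold eIF4G, 4 eIF4E-binding proteins, 4 of eIF5 and 1 of eIF6.

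The study compared whole kidneys of wild-type male C57BL/6NCrl mice whose age the labels do not give. RIAKI kidneys (n = 6) came from mice that had drinking water withheld for 19 h and then received 50% glycerol, dosed at 0.05 ml for each 10 g of weight, into muscle of the left hind limb, which destroys muscle and loads the kidney with its contents. Control kidneys (n = 6) came from sham mice that had the same water restriction and an injection of saline. Both groups were anaesthetized with isoflurane, received the analgesic Rimadyl at 5 mg per kg at 0 and 3 h, and were collected at 24 h. Each kidney gave 1 library of 3′ tags counted by molecular index. The labels number the kidneys from 1 to 6 in each group and do not say that each is a separate animal, so p-values measure the spread between these samples.

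Initiation of translation brings the small ribosomal subunit, charged with the initiator tRNA, to the start codon of an mRNA. The complex eIF4F (cap-binding eIF4E, scaffold eIF4G and helicase eIF4A) marks the capped mRNA, eIF3 holds the small subunit, eIF1 and eIF1A guard the choice of the start codon, GTP-bound eIF2 delivers the tRNA, and eIF5 and eIF5B end the process with the joining of the large subunit. Cells control the pathway at the cap through eIF4E-binding proteins, which the growth kinase mTORC1 inactivates, and at eIF2 through stress-sensing kinases that make it block its own recharging by eIF2B. These controls act on proteins, and the libraries measured only mRNA.

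The libraries held 1579157 to 2073959 counts, of which the mitochondrial ribosomal RNAs took 36.6 to 52.7% in control and 34.1 to 58.95% in RIAKI kidneys. Proximal tubule markers summed to 7739 to 12670 CPM in control and 2698 to 6551 CPM in RIAKI kidneys, and all 10 were lower. Most of this sum was Kap, at 6680 to 11530 CPM in control and 2438 to 6264 CPM in RIAKI kidneys. Kap changed by -0.88 on the log2 scale, and the median of the list was -2.03. Injured tubule markers summed to 418 to 489 CPM in control and 4578 to 6308 CPM in RIAKI kidneys, and 7 of 8 were higher. Spp1 alone had 313 to 396 and 2953 to 4712 CPM. Of the other lists, 4 of 5 thick ascending limb, 4 of 5 distal, 5 of 6 collecting duct and 4 of 5 red blood cell markers were lower, 3 of 4 neutrophil markers (sum 2.12 to 4.60 and 17.1 to 48.1 CPM, with Ly6g, Mpo and Elane at 0) and 3 of 6 macrophage markers (sum 20.3 to 42.7 and 37.5 to 68.98 CPM, with Csf1r lower) were higher, 2 of 5 fibroblast and pericyte markers were higher and 2 lower, 1 of 5 podocyte markers was higher, and 0 of 6 endothelial markers passed the test. The skeletal muscle markers Ckm, Tnnt3, Acta1 and Myh4 were at 0 in all libraries. Mylpf, also on that list, had 2.12 to 4.22 CPM in control and 0 to 2.76 CPM in RIAKI kidneys. It did not pass the test (log2 fold change -1.07). The part of these shifts in the results below was not tested, and in whole kidney RNA fewer cells of a type and less RNA per cell cannot be told apart.

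Initiation factor genes took a larger part of the reads after injury. Their share of all counts outside the mitochondrial ribosomal RNAs was 0.465 to 0.52% (median 0.498) in control kidneys and 0.839 to 1.13% (median 0.905) in RIAKI kidneys. The 3 best counted members, Eif4a1, Eif1 and Eif5a, did not make up the whole of it, since without them the share was 0.286 to 0.314% in control and 0.502 to 0.611% in RIAKI kidneys. In both counts every RIAKI kidney lay above every control kidney, and RIAKI replicate 1 was the highest for all members together.

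By gene, 27 of the 54 tested members were higher in RIAKI and 3 were lower, where 36.3% of all genes were called, 17.4% higher and 18.8% lower. A call means an adjusted p under 0.05 in the quasi-likelihood fit of edgeR, adjusted after Benjamini and Hochberg over the 13536 genes tested. The median log2 fold change of the members was 0.49, and that of all genes tested was -0.014. In 18 members every RIAKI kidney was above every control kidney and in 1, Eif4ebp2, every RIAKI kidney was below, where 8.92% of all genes did not overlap in the upward and 10.4% in the downward direction. The lower genes were Eif4ebp2, Eif4g3 and Eif4a2, and 24 members did not pass the test. Of the 30 calls, 25 held at the threshold of 0.05 under all alternative fits that gave the gene a value (23 fits, or 22 for Eif3j2, which has no unique reads), and those of Eif2b5, Eif4h, Eif4a2, Eif3m and Eif4a3 did not. At a threshold of 0.01 the same 5 genes and Eif1ad were not called. Leaving out any single library gave 24 to 27 higher and 2 to 3 lower members, and the libraries numbered 3 to 6 alone gave 24 and 3.

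**Figure D1:**
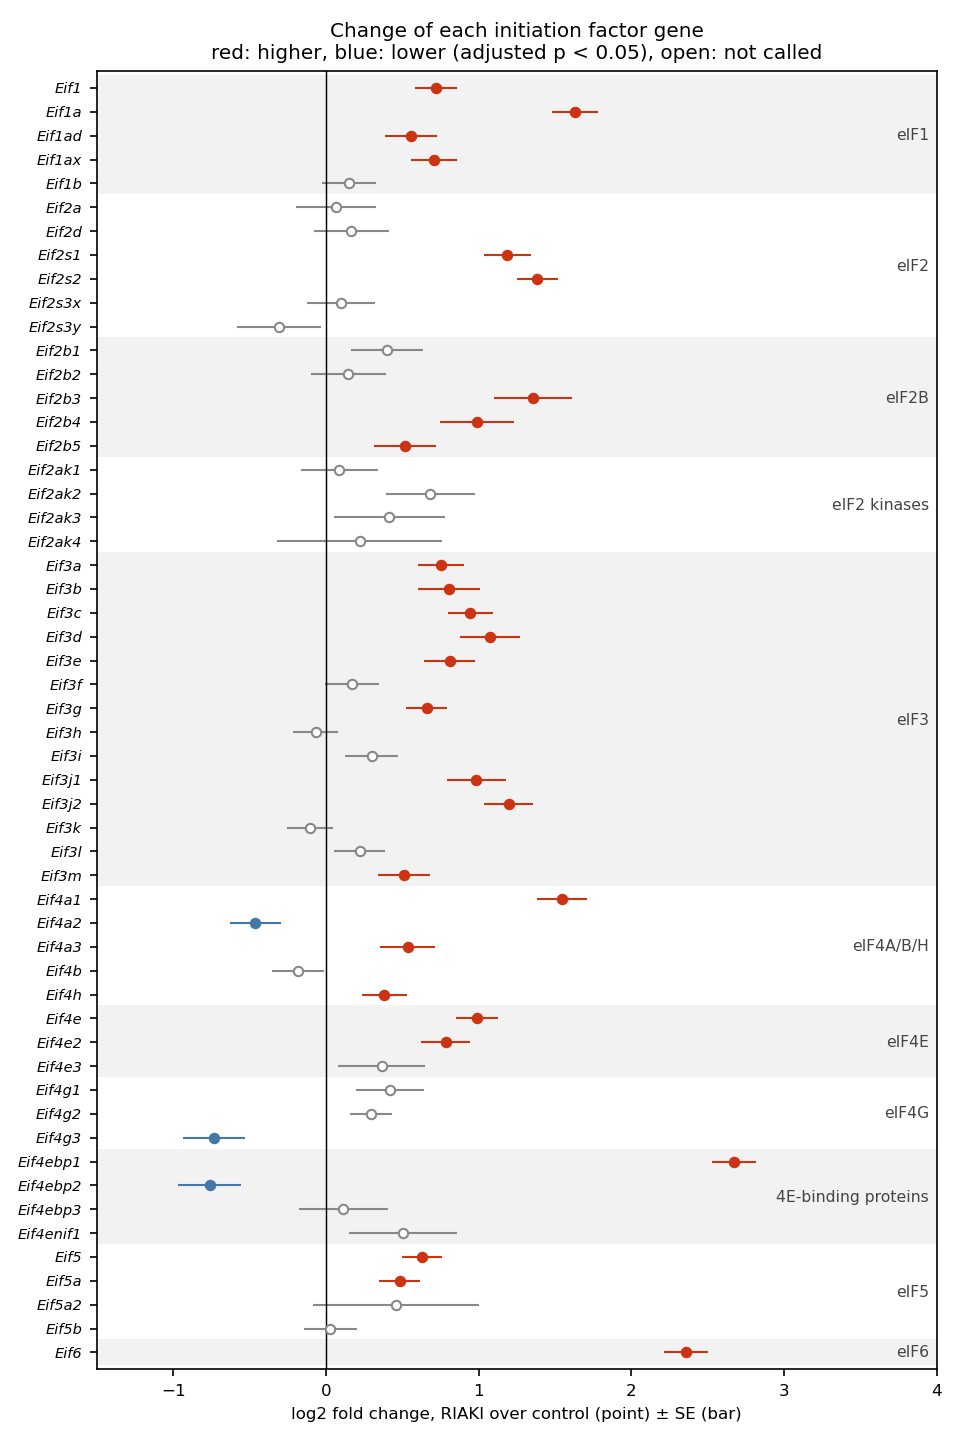
Log2 fold change of RIAKI over control (horizontal axis, point) with its standard error (bar) for each of the 54 tested members (vertical axis), grouped by factor, with red points for genes higher and blue points for genes lower at an adjusted p under 0.05 and open points for genes not called. Eif4ebp1 at 2.67 and Eif6 at 2.36 lie farthest to the right, and the 3 blue points are Eif4a2, Eif4g3 and Eif4ebp2.

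Promoter windows were read to show what sequence the members share. Windows of 250 bases before the start, from RefSeq annotation on GRCm38.p6, were used for 43 members, 56 windows in all. Members for which no window was used include Eif4ebp1, Eif6, Eif1a and Eif2b3, with log2 fold changes of 2.67, 2.36, 1.63 and 1.36. No member on the chromosome of Eif1a was used, which also leaves out Eif3j2 and Eif4ebp3. The shares of members and of all genes may therefore not cover the same chromosomes. The member shares and medians below therefore leave out these genes, among them Eif4ebp1 and Eif6, which changed most. Both strands were searched for the E-box CACGTG, the amino acid response element CARE (TGATGNAA), the cyclic AMP response element CRE (TGACGTCA) and CCAAT. An E-box was present in 9 of 43 members (20.9%) and in 6.86% of 27025 genes with a window, or by window in 19.6% of those of members and 6.02% of all 32851. CARE was found in 1 member, Eif2s3x (2.33%, with 3.91% of all genes), CRE in 0 (1.77% of all genes), and CCAAT in 14 (32.6%, with 37.5% of all genes). No motif searched contains another. The members with an E-box were Eif4a1, Eif4e, Eif4h and Eif5a, which were higher in RIAKI, and Eif1b, Eif3f, Eif3k, Eif4g1 and Eif5a2, which were not called. Their median log2 fold change was 0.42, and it was 0.51 over the 34 members whose windows lack the motif, of which 17 were higher and 3 lower. The windows of 3 higher genes and of Eif3k, which was not called, are given 5′ to 3′ on the strand of the gene, with the E-box in capitals, to show that its place before the start differs and that genes with and without a call carry it.
Eif4a1 chr11:69672424-69672673 (minus strand): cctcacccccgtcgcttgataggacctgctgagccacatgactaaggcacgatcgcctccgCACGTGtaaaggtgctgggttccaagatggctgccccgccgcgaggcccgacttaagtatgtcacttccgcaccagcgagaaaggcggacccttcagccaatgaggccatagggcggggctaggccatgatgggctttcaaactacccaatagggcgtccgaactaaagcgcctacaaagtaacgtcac
Eif4e chr3:138527018-138527267 (plus strand): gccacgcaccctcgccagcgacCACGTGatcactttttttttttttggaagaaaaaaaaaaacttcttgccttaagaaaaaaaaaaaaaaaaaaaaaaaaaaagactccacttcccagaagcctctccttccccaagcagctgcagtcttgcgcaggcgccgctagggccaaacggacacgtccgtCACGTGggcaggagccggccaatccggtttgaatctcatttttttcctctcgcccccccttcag
Eif5a chr11:69921387-69921636 (minus strand): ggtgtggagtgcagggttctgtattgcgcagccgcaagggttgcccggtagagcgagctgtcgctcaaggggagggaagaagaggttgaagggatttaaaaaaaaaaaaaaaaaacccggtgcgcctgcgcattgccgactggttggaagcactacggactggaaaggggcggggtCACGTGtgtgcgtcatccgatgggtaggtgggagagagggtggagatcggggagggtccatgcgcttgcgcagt
Eif3k chr7:28981889-28982138 (minus strand): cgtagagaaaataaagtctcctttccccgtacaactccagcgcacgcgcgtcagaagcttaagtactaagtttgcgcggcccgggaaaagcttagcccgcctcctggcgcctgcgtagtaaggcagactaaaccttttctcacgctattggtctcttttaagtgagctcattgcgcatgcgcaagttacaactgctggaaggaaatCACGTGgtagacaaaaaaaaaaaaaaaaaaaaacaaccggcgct
Counted to the first base of the motif, the E-box lies 189 bases before the start in Eif4a1, 228 and 64 bases before it in Eif4e, 74 bases before it in Eif5a and 44 bases before it in Eif3k. Eif4e has a second listed start and Eif5a has 6 listed windows, of which 3 hold the motif. Of these, the printed window and another that overlaps it hold the same site, which the share by window counts in each. A match is a description of the letters and says nothing of what binds there.

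At the mRNA cap the eIF4E-binding proteins moved in opposite directions. Eif4ebp1 (chr8:27260329-27276674, GRCm38), the repressor of eIF4E that mTORC1 is best known to inactivate, had 28.9 to 38.8 CPM (median 29.8) in control kidneys and 163 to 218 CPM (median 211) in RIAKI kidneys. Its level rose 6.37-fold (log2 fold change 2.67 ± 0.14, adjusted p = 4.64e-15, SE here and below from the fit, n = 6 per group), the largest change among the 54 members tested. Every RIAKI kidney lay far above the highest control, and the lowest RIAKI kidney was replicate 5. Eif4ebp2, its paralog with the same action, had 21.1 to 31.1 CPM (median 26.5) in control kidneys and 6.07 to 20.4 CPM (median 17.5) in RIAKI kidneys. It fell by 0.76 on the log2 scale (SE 0.20, adjusted p = 0.00379), without overlap of the groups. The low end of the RIAKI group was a single kidney, replicate 6, and the highest RIAKI kidney lay just below the lowest control.

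Eif4ebp3, the third paralog, had 2.12 to 7.96 CPM (median 5.38) in control kidneys and 4.18 to 8.97 CPM (median 5.33) in RIAKI kidneys and was not called (log2 fold change 0.12 ± 0.29, adjusted p = 0.797), but only 3.17% of its reads mapped uniquely, so that its level is uncertain. Eif4enif1, which carries eIF4E into the nucleus and to sites of mRNA storage, had 1.05 to 7.22 CPM (median 3.46) in control kidneys and 2.50 to 7.73 CPM (median 5.00) in RIAKI kidneys and was not called (log2 fold change 0.51 ± 0.35, adjusted p = 0.285). Its groups overlapped almost fully, and it shares its locus with Drg1 on the other strand.

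The cap-binding proteins Eif4e and Eif4e2 were both higher. Eif4e, which holds the cap in eIF4F, had 25.4 to 31.7 CPM (median 29.6) in control kidneys and 54.1 to 62.2 CPM (median 58.6) in RIAKI kidneys (log2 fold change 0.99 ± 0.14, adjusted p = 9.39e-07). Eif4e2, known as 4EHP, binds the cap without eIF4G and represses the mRNA, and it had 15.4 to 25.6 CPM (median 21.5) in control kidneys and 30.0 to 41.2 CPM (median 37.5) in RIAKI kidneys (log2 fold change 0.78 ± 0.16, adjusted p = 0.000274). Both genes had every RIAKI kidney above every control kidney, and the spread of Eif4e within either group was narrow. Eif4e3, a cap-binding relative of lower level, had 4.23 to 6.86 CPM (median 4.78) in control kidneys and 4.18 to 11.6 CPM (median 5.43) in RIAKI kidneys, with overlapping groups and no call (log2 fold change 0.37 ± 0.29, adjusted p = 0.342).

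Among helicases, Eif4a1 and Eif4a2 diverged. Eif4a1 (chr11:69666936-69672423), the main RNA helicase of eIF4F, had 176 to 394 CPM (median 320.3) in control kidneys and 712 to 996 CPM (median 932) in RIAKI kidneys and was 2.93-fold higher (log2 fold change 1.55 ± 0.16, adjusted p = 6.74e-09). Eif4a2, its close paralog, had 48.3 to 75.9 CPM (median 59.5) in control kidneys and 27.6 to 53.0 CPM (median 46.8) in RIAKI kidneys and was lower (log2 fold change -0.46 ± 0.17, adjusted p = 0.0299). The groups of Eif4a1 were far apart, while those of Eif4a2 overlapped. The call of Eif4a2 was lost in 7 alternatives, which were library totals without TMM (adjusted p = 0.219) and leaving out control replicate 3, 4 or 6 or RIAKI replicate 2, 3 or 4 (adjusted p 0.0517 to 0.0917). A small RNA gene inside Eif4a2 on the same strand, Gm24616, was given 419 counts beside 1154 for Eif4a2 itself.

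Eif4a3, a helicase that sits in the exon junction complex, had 12.2 to 23.2 CPM (median 17.1) in control kidneys and 19.1 to 28.9 CPM (median 26.3) in RIAKI kidneys (log2 fold change 0.54 ± 0.18, adjusted p = 0.0177), and this call was lost with library totals only, without control replicate 5 and with the libraries numbered 3 to 6 only (adjusted p 0.0514 to 0.0601). Eif4h, which like Eif4b stimulates eIF4A, had 35.4 to 40.3 CPM (median 37.0) in control kidneys and 38.5 to 67.7 CPM (median 45.4) in RIAKI kidneys (log2 fold change 0.38 ± 0.15, adjusted p = 0.0435), and its call was lost in 14 of 23 alternatives. These include the leaving out of each of the 6 controls and of RIAKI replicate 1 or 2, with adjusted p up to 0.119, and the libraries numbered 3 to 6 only, with adjusted p = 0.34. RIAKI replicate 1, at 67.7 CPM, stood apart above the other RIAKI kidneys. Eif4b had 17.9 to 25.3 CPM (median 22.0) in control kidneys and 16.0 to 26.4 CPM (median 17.9) in RIAKI kidneys and was not called (log2 fold change -0.18 ± 0.17, adjusted p = 0.439).

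Scaffold genes showed no increase that passed the test. Eif4g1, the main scaffold of eIF4F, had 15.4 to 38.2 CPM (median 30.6) in control kidneys and 20 to 55.6 CPM (median 35.0) in RIAKI kidneys (log2 fold change 0.42 ± 0.23, adjusted p = 0.151). Eif4g2, known as DAP5, which lacks the binding site for eIF4E, had 108 to 157 CPM (median 139) in control kidneys and 131 to 182 CPM (median 173) in RIAKI kidneys (log2 fold change 0.30 ± 0.14, adjusted p = 0.0903). The groups of both overlapped, and Eif4g2 passed the threshold with the replicate number as a block and without RIAKI replicate 4. Eif4g3, a paralog of Eif4g1, had 16.4 to 27.5 CPM (median 25.3) in control kidneys and 7.17 to 21.5 CPM (median 14.4) in RIAKI kidneys and fell by 0.73 on the log2 scale (SE 0.20, adjusted p = 0.00504). Its groups overlapped through a single low control and a single high RIAKI kidney.

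**Figure D2:**
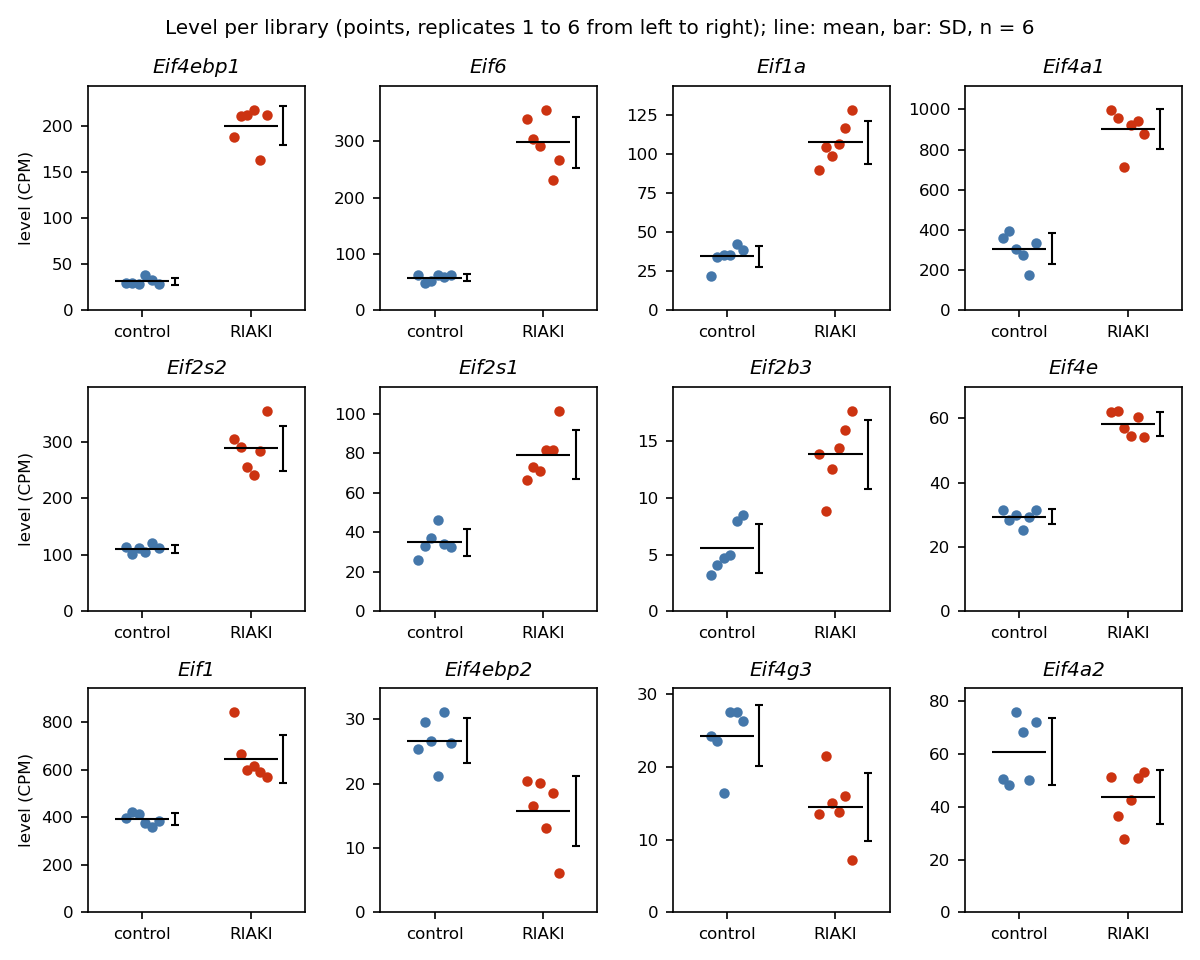
Level in CPM (vertical axes, each from 0) of 12 members in the 6 control (blue) and 6 RIAKI (red) kidneys, with replicates 1 to 6 from left to right, the group mean as a line and the SD as a bar beside it. Eif4ebp1, Eif6, Eif1a, Eif4a1, Eif2s2, Eif2s1, Eif2b3, Eif4e and Eif1 separate upward, Eif4ebp2 separates downward, and Eif4g3 and Eif4a2 are lower with overlap.

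The change in balance between paralogs was tested within libraries, as the log2 ratio of paired members after adding 1 to each CPM value (2-sided exact permutation test over every assignment of 12 libraries to 2 groups of 6, smallest possible p 0.00216, adjusted over 14 pairs). The ratio of Eif4ebp1 to Eif4ebp2 was 0.23 ± 0.31 (mean ± SD, n = 6) on the log2 scale in control and 3.67 ± 0.69 in RIAKI kidneys, a difference of 3.44 (exact permutation p = 0.00216, adjusted p = 0.00606). Eif4ebp1 to Eif4e, the repressor over its target, went from 0.095 ± 0.27 to 1.76 ± 0.22, a difference of 1.67 with the same p-values. Neither ratio overlapped between the groups. For the first pair this was fixed beforehand, as Eif4ebp1 separated the groups upward and Eif4ebp2 downward in the same libraries. Its p-value therefore had to be the smallest possible and adds no support. The pairs were chosen with earlier results of these data known.

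Eif4a1 to Eif4a2 went from 2.298 ± 0.49 to 4.36 ± 0.26 (difference 2.07), Eif4a1 to Eif4a3 by 1.07, and Eif1a to Eif1ax from -0.55 ± 0.20 to 0.38 ± 0.16 (difference 0.93), each with the smallest possible p and no overlap. The ratio of Eif1a to Eif1ax changed sign on this scale, so that the counts of Eif1a were below those of Eif1ax in all control kidneys and above them in all RIAKI kidneys. Eif4g1 to Eif4g3 (difference 1.15) and Eif4b to Eif4h (difference -0.53) also passed (both exact permutation p = 0.00433, adjusted p = 0.00866), with overlapping groups. The 7 other pairs did not pass. Among them, Eif4e to Eif4e2 differed by 0.21 (exact permutation p = 0.149, adjusted p = 0.232) and Eif1 to Eif1b by 0.55 (exact permutation p = 0.0433, adjusted p = 0.0758). Since 3′ tags carry no gene length these ratios compare counts, and the number of transcripts can be compared only as far as each gene gives 1 tag.

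**Figure D3:**
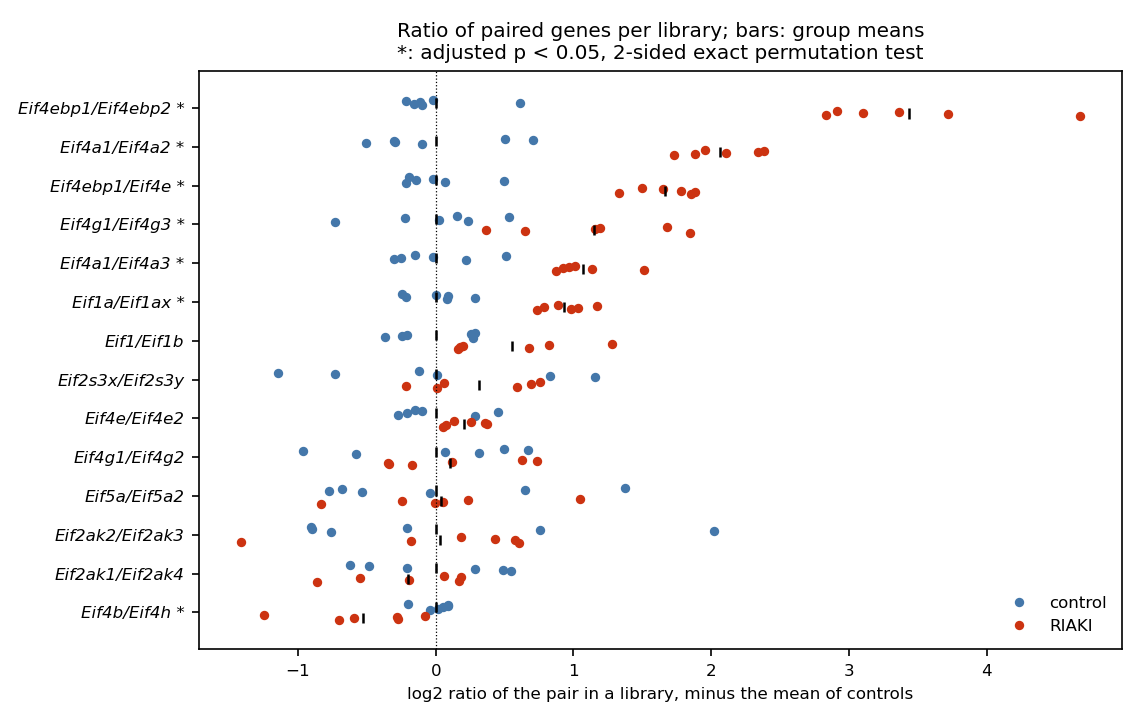
Log2 ratio of the members of each of 14 pairs per library (horizontal axis), after subtraction of the mean of the control kidneys, for control (blue) and RIAKI (red) kidneys, with group means as bars and an asterisk at an adjusted p under 0.05. Eif4ebp1/Eif4ebp2 shows the largest shift, 3.44, and 5 of the 7 marked pairs have no overlap.

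Of the 5 eIF1 and eIF1A genes, 4 were higher. Eif1, which keeps the scanning ribosome open until a start codon is met, was among the best counted members with 359.6 to 422 CPM (median 392) in control kidneys and 569 to 842 CPM (median 608) in RIAKI kidneys (log2 fold change 0.72 ± 0.14, adjusted p = 9.01e-05). Eif1a, one of a pair of genes for eIF1A, had 22.2 to 42.1 CPM (median 35.4) in control kidneys and 89.7 to 128 CPM (median 106) in RIAKI kidneys (log2 fold change 1.63 ± 0.15, adjusted p = 5.40e-10). Eif1ax, the X-linked gene of the pair, had 39.0 to 60.6 CPM (median 50.5) in control kidneys and 67.8 to 112 CPM (median 79.7) in RIAKI kidneys (log2 fold change 0.71 ± 0.15, adjusted p = 0.000328). All 3 separated the groups completely. For Eif1, 71.2% of reads mapped uniquely, and the unique reads alone gave a log2 fold change of 0.74.

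Eif1ad, which codes for a protein with an eIF1A domain, had 13.4 to 17.9 CPM (median 14.5) in control kidneys and 17.1 to 25.9 CPM (median 23.3) in RIAKI kidneys (log2 fold change 0.56 ± 0.17, adjusted p = 0.0116), and it shares its locus with Banf1 on the other strand. Eif1b, a paralog of Eif1, had 19.0 to 29.0 CPM (median 24.0) in control kidneys and 20.8 to 33.1 CPM (median 26.7) in RIAKI kidneys and was not called (log2 fold change 0.15 ± 0.18, adjusted p = 0.538). In both genes the groups overlapped, by far more in Eif1b.

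For eIF2, the alpha and beta subunits rose and the gamma subunit genes were not called. Eif2s1, the alpha subunit that carries the stress-regulated phosphorylation site, had 25.9 to 46.5 CPM (median 33.7) in control kidneys and 66.4 to 102 CPM (median 77.6) in RIAKI kidneys (log2 fold change 1.19 ± 0.15, adjusted p = 2.64e-07). Eif2s2, the beta subunit, had 102 to 120.3 CPM (median 112) in control kidneys and 241 to 354 CPM (median 287) in RIAKI kidneys (log2 fold change 1.38 ± 0.13, adjusted p = 1.14e-09). Neither gene had overlapping groups, and the lowest RIAKI kidney was in both well above the highest control. Eif2s3x, the gamma subunit gene on the X chromosome, had 9.87 to 26.9 CPM (median 18.5) in control kidneys and 14.2 to 25.8 CPM (median 17.3) in RIAKI kidneys, with a 95% interval of its log2 fold change from -0.34 to 0.54. Eif2s3y, its Y-linked copy, had 4.93 to 13.6 CPM (median 9.35) in control kidneys and 4.18 to 11.2 CPM (median 8.27) in RIAKI kidneys, with an interval from -0.85 to 0.23. Both intervals lie below the estimates of Eif2s1 and Eif2s2, but the difference between subunits was not itself tested.

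Eif2a and Eif2d, which deliver initiator tRNA outside the canonical route and are not subunits of eIF2, were not called (log2 fold changes 0.067 ± 0.26 and 0.17 ± 0.25). They were low, between 4.38 and 16.0 CPM for Eif2a and between 5.28 and 12.7 CPM for Eif2d over the 12 kidneys. Eif2a shares its locus with Serp1 on the other strand.

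In the exchange factor eIF2B, 3 of 5 genes were higher. Eif2b3 and Eif2b5 encode the gamma and epsilon subunits of the catalytic part, and Eif2b1, Eif2b2 and Eif2b4 the alpha, beta and delta subunits of the regulatory part that senses phosphorylated eIF2. Eif2b3 had 3.17 to 8.54 CPM (median 4.81) in control kidneys and 8.81 to 17.7 CPM (median 14.1) in RIAKI kidneys (log2 fold change 1.36 ± 0.25, adjusted p = 7.93e-05), without overlap. Eif2b4 had 3.94 to 10.3 CPM (median 7.55) in control kidneys and 9.92 to 22.0 CPM (median 13.9) in RIAKI kidneys (log2 fold change 0.99 ± 0.24, adjusted p = 0.00176), with the groups touching at 1 low RIAKI kidney, and it shares its locus with Snx17. Eif2b5 had 10.8 to 21.1 CPM (median 14.2) in control kidneys and 14.9 to 27.5 CPM (median 23.7) in RIAKI kidneys (log2 fold change 0.52 ± 0.20, adjusted p = 0.0444), and 12 of 23 alternatives took the call away, among them DESeq2, limma voom and the leaving out of control replicate 2, 3, 4 or 6 or RIAKI replicate 2, 3, 4 or 6 (adjusted p up to 0.118). Eif2b1 had 9.75 to 12.1 CPM (median 10.8) in control kidneys and 7.73 to 20.4 CPM (median 14.4) in RIAKI kidneys (log2 fold change 0.40 ± 0.23, adjusted p = 0.19). Eif2b2 had 7.31 to 13.1 CPM (median 10.2) in control kidneys and 7.21 to 18.8 CPM (median 9.65) in RIAKI kidneys (log2 fold change 0.15 ± 0.24, adjusted p = 0.68). Neither was called, and both RIAKI groups spread more widely than the controls.

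None of the 4 eIF2 kinases was called. Eif2ak1 (HRI), known for its control by heme, had 6.09 to 9.19 CPM (median 8.34) in control kidneys and 5.00 to 14.3 CPM (median 7.21) in RIAKI kidneys, and the 95% interval of its log2 fold change ran from -0.41 to 0.59, and it shares its locus with Aimp2 on the other strand. Eif2ak2 (PKR), which senses double-stranded RNA, had 3.17 to 5.49 CPM (median 4.15) in control kidneys and 3.61 to 9.92 CPM (median 6.41) in RIAKI kidneys (log2 fold change 0.68 ± 0.29, adjusted p = 0.0684) and passed the threshold only without RIAKI replicate 5 (adjusted p = 0.0268). Eif2ak3 (PERK), the kinase of the endoplasmic reticulum, had 0.611 to 8.54 CPM (median 5.87) in control kidneys and 3.31 to 11.3 CPM (median 6.23) in RIAKI kidneys (interval -0.30 to 1.13). Eif2ak4 (GCN2), which senses uncharged tRNA, had 0.611 to 2.64 CPM (median 0.821) in control kidneys and 0.515 to 2.76 CPM (median 1.65) in RIAKI kidneys (interval -0.84 to 1.28). All 4 kinase genes were counted at low levels in either group, and the intervals of the last 3 include a log2 fold change of 1, so a change of that size lies within their error.

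In a list for the integrated stress response around eIF2, 7 of 11 tested genes were higher and 0 lower. The median log2 fold change of the list was 0.98. Of all genes tested, 17.4% were higher and 18.8% lower. The list holds Impact and Gcn1, which act on GCN2, beside genes downstream of the kinases. Ppp1r15a (GADD34), which brings a phosphatase to eIF2, had 2.03 to 4.21 CPM (median 2.54) in control kidneys and 14.3 to 59.5 CPM (median 24.4) in RIAKI kidneys (log2 fold change 3.42 ± 0.35, adjusted p = 3.17e-09). Chac1, an ATF4 target that degrades glutathione, had 0 to 1.22 CPM (median 0.562) in control kidneys and 1.66 to 11.4 CPM (median 4.30) in RIAKI kidneys (log2 fold change 3.38 ± 0.58, adjusted p = 2.71e-05). Trib3, a pseudokinase induced by ATF4 and CHOP, rose by 3.18 on the log2 scale (adjusted p = 1.31e-05), and Asns, the asparagine synthetase, by 2.55 (adjusted p = 8.70e-09). In Ppp1r15a, Chac1, Trib3 and Asns every RIAKI kidney was above every control kidney. Impact, which restrains GCN2, was also higher (log2 fold change 0.98 ± 0.21), while Gcn1, which GCN2 needs, was not called (-0.042 ± 0.27), both chosen after their values were seen.

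eIF3 was split, with 9 of its 14 genes higher and 0 lower (median log2 fold change 0.71). Its subunits form a core of 8 with PCI or MPN domains (a, c, e, f, h, k, l and m), a b, g and i module that reaches toward the mRNA entry side, subunit d, which can bind the cap, and the loosely held subunit j. In the core 4 of 8 were higher, with a median of 0.37. Eif3c, which pairs with subunit a in the core, had 45.5 to 62.9 CPM (median 51.4) in control kidneys and 85.6 to 130.0 CPM (median 97.3) in RIAKI kidneys (log2 fold change 0.95 ± 0.14, adjusted p = 4.36e-06). Eif3a, the largest subunit, had 33.5 to 42.7 CPM (median 34.6) in control kidneys and 46.9 to 74.7 CPM (median 64.8) in RIAKI kidneys (log2 fold change 0.76 ± 0.15, adjusted p = 0.000152). Both separated the groups without overlap.

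Eif3e had 24.4 to 38.8 CPM (median 32.5) in control kidneys and 38.8 to 73.4 CPM (median 58.5) in RIAKI kidneys (log2 fold change 0.81 ± 0.17, adjusted p = 0.000284), with its lowest RIAKI kidney just under the highest control. Eif3m had 37.5 to 63.7 CPM (median 55.8) in control kidneys and 51.8 to 95.3 CPM (median 77.1) in RIAKI kidneys (log2 fold change 0.51 ± 0.17, adjusted p = 0.0181), and this call was lost without control replicate 1 or 2 or RIAKI replicate 5 (adjusted p 0.0525 to 0.0559). The other core genes were not called. Their log2 fold changes were 0.17 ± 0.18 for Eif3f, -0.065 ± 0.15 for Eif3h, -0.10 ± 0.15 for Eif3k and 0.22 ± 0.16 for Eif3l. Eif3h and Eif3k were not poorly counted, with medians of 82.2 and 107 CPM in control kidneys, and their 95% intervals ran from -0.35 to 0.22 and from -0.40 to 0.19, below the estimates of the 4 higher core genes. The difference between core genes was not itself tested.

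Of the b, g and i module, Eif3b had 13.1 to 21.1 CPM (median 18.6) in control kidneys and 20.97 to 49.7 CPM (median 28.0) in RIAKI kidneys (log2 fold change 0.81 ± 0.20, adjusted p = 0.00208). Eif3g had 41.4 to 53.3 CPM (median 48.5) in control kidneys and 62.8 to 88.7 CPM (median 75.6) in RIAKI kidneys (log2 fold change 0.66 ± 0.14, adjusted p = 0.000274). Eif3i was not called (log2 fold change 0.30 ± 0.17, adjusted p = 0.182) and passed the threshold only without RIAKI replicate 1 (adjusted p = 0.0483). Eif3g separated the groups without overlap, and Eif3b missed separation by 1 low RIAKI kidney. Eif3d had 11.1 to 19.2 CPM (median 14.2) in control kidneys and 16.9 to 42.7 CPM (median 32.4) in RIAKI kidneys (log2 fold change 1.08 ± 0.20, adjusted p = 5.81e-05), and a single RIAKI kidney lay within the control range.

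The j subunit has a pair of genes in the mouse. Eif3j1 had 8.46 to 23.1 CPM (median 16.1) in control kidneys and 28.4 to 39.4 CPM (median 31.9) in RIAKI kidneys (log2 fold change 0.99 ± 0.19, adjusted p = 0.000125). Eif3j2 had 16.4 to 27.6 CPM (median 24.6) in control kidneys and 41.0 to 66.5 CPM (median 55.1) in RIAKI kidneys (log2 fold change 1.197 ± 0.16, adjusted p = 4.43e-07). Both separated fully. Only 56.4% of the reads of Eif3j1 and 0% of those of Eif3j2 mapped uniquely, so the split of reads between the pair is uncertain. The unique reads of Eif3j1 alone gave a log2 fold change of 0.92 (adjusted p = 0.000541).

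**Figure D4:**
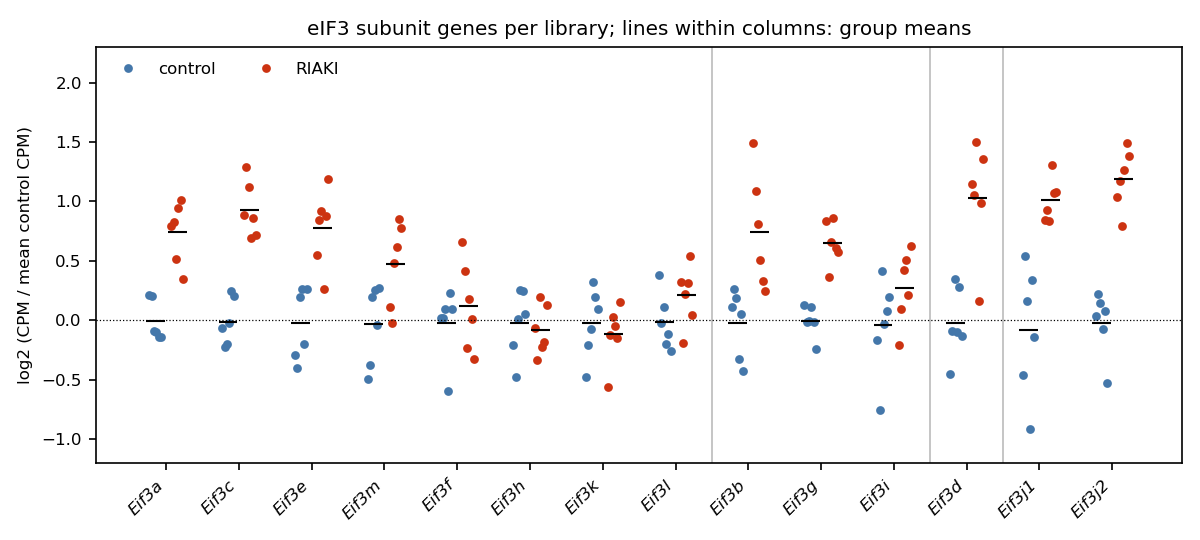
Log2 of the CPM of each eIF3 gene in each kidney over the mean CPM of the control kidneys (vertical axis), for control (blue) and RIAKI (red) kidneys, with short lines for group means and grey lines dividing the core, the b, g and i module, d and j. Eif3j2 has the highest log2 fold change, 1.197, and the RIAKI points of Eif3f, Eif3h, Eif3k and Eif3l overlap those of the controls.

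Among the eIF5 genes, Eif5 and Eif5a were higher. Eif5, which triggers GTP hydrolysis by eIF2 at the start codon, had 119 to 156 CPM (median 139) in control kidneys and 172 to 250.1 CPM (median 217) in RIAKI kidneys (log2 fold change 0.63 ± 0.13, adjusted p = 0.000355). Eif5a, the hypusine-bearing factor that helps ribosomes at difficult peptide bonds, had 308 to 419 CPM (median 359) in control kidneys and 468 to 592 CPM (median 486) in RIAKI kidneys (log2 fold change 0.48 ± 0.13, adjusted p = 0.00494). Neither gene had overlapping groups. Eif5b, the GTPase of subunit joining, had 35.4 to 67.8 CPM (median 46.1) in control kidneys and 32.6 to 61.8 CPM (median 53.8) in RIAKI kidneys, and the 95% interval of its log2 fold change ran from -0.31 to 0.38. Eif5a2, the rarer paralog of Eif5a, had 0 to 3.25 CPM (median 1.57) in control kidneys and 0.815 to 4.42 CPM (median 2.28) in RIAKI kidneys and was not called (log2 fold change 0.46 ± 0.54, adjusted p = 0.548). Eif5b shares its locus with Rev1, and its groups lay on top of each other.

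Eif6 (chr2:155819832-155826925) was second among the tested members in size of change. The protein binds the large ribosomal subunit, is needed to make it, and keeps it from joining the small one until SBDS and EFL1 remove it. Its level was 48.7 to 63.7 CPM (median 60.4) in control kidneys and 231 to 356 CPM (median 298) in RIAKI kidneys, 5.13-fold higher (log2 fold change 2.36 ± 0.15, adjusted p = 9.00e-14). The lowest RIAKI kidney stood far above the highest control kidney, and no alternative moved the log2 fold change outside 2.29 to 2.44.

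Reads within introns, which can come from unspliced RNA, gave few calls at the depth at hand. Of the members, 35 had at least 10 intron reads over the 12 libraries, with 11 to 264 reads each (median 30), and 20 had fewer. Eif2b3 and Eif3i were higher and 0 were lower at an adjusted p under 0.05 (edgeR), beside 9.66% of 10182 genes called, 4.36% higher and 5.3% lower. An unadjusted p under 0.05 was reached by 8 members, a count without a matching share over all genes, so it cannot be weighed. Of the 35, 28 had a log2 fold change above 0, with a median of 0.54 beside -0.018 over all genes tested. Eif2b3, whose exon reads were higher too, had 43 intron reads in control and 94 in RIAKI kidneys (log2 fold change 1.30 ± 0.31, adjusted p = 0.0013). Eif3i, whose exon reads were not called, had 5 and 22 (log2 fold change 2.10 ± 0.67, adjusted p = 0.027), and 8 of the 15 alternatives took this call away, among them the block and the scaling by exon reads.

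For the genes with the lower exon levels, intron reads gave no call. Eif4ebp2 had 23 intron reads in each group (log2 fold change 0.063 ± 0.48), Eif4g3 had 158 in control and 106 in RIAKI kidneys (-0.44 ± 0.26), and Eif4a2 had 64 and 102 (0.76 ± 0.32, adjusted p = 0.134). The sign for Eif4a2 was thus positive in introns and negative in exons. Its intron reads ran from 2 to 20 over the control and from 3 to 32 over the RIAKI kidneys. In each group replicate 1 was lowest and replicate 6 highest. The small RNA gene Gm24616 lies inside Eif4a2 on the same strand, and its part in these reads was not tested. Eif1a had 8 and 25 intron reads (1.67 ± 0.60, adjusted p = 0.0584).

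Around the initiation factors, 64 genes of 7 further lists were tested, of 67 listed, and 26 were higher and 6 lower (median log2 fold change 0.36). Beside these and the counts of each list below, 17.4% of all genes tested were higher and 18.8% lower. Of mTORC1 and its inputs 3 of 13 were higher and 2 lower, not far from the shares over all genes. Mtor, the kinase itself, had 13.6 to 26.8 CPM (median 20.1) in control kidneys and 4.96 to 15.9 CPM (median 13.3) in RIAKI kidneys (log2 fold change -0.82 ± 0.23, adjusted p = 0.00457), and Deptor, its inhibitor, was lower too (log2 fold change -0.76, adjusted p = 0.000712). Akt1s1 (PRAS40), another inhibitor, was higher (log2 fold change 0.92, adjusted p = 0.00013), as was Ddit4 (REDD1), an inhibitor induced by stress (log2 fold change 0.98, adjusted p = 0.0271), whose call 8 alternatives took away. The call of Mtor was lost with the libraries numbered 3 to 6 only. The other higher gene of the list was Rheb, which is not one of these inhibitors (log2 fold change 0.69, adjusted p = 0.000226). Its groups did not overlap, and its call was not followed through the alternatives.

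Among S6 kinase and cap regulators 5 of 14 were higher and 3 lower, the lower part near the share over all genes. Pdcd4, which blocks eIF4A, had 94.0 to 188 CPM (median 141) in control kidneys and 56.9 to 87.0 CPM (median 72.0) in RIAKI kidneys (log2 fold change -0.98 ± 0.16, adjusted p = 1.69e-05), with all RIAKI kidneys below all controls. The poly(A)-binding protein genes Pabpc1 and Pabpc4 were higher (log2 fold changes 0.89 ± 0.15 and 1.06 ± 0.26), the latter not with the libraries numbered 3 to 6 only. Ncbp1, of the nuclear cap-binding complex, was higher by 0.93 on the log2 scale, but 13 alternatives took the call away.

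Of the other initiation and subunit joining factors, 4 of 9 were higher and 0 lower, namely Ddx3x, an RNA helicase (log2 fold change 0.93), Abce1, which splits ribosomes (0.89), Denr, which works in reinitiation (0.77), and Sbds, which releases eIF6 (0.62). Efl1, the partner of SBDS, was not called (log2 fold change 0.90 ± 0.37, adjusted p = 0.0583). Elongation factors had 5 of 7 higher and 0 lower, led by Eef1e1, a scaffold of the tRNA synthetase complex (log2 fold change 1.43 ± 0.20), and Eef1g, Eef1b2 and Eef1d of the eEF1 complex (0.80, 0.61 and 0.55). Eef2, the translocase, had 80.8 to 106 CPM (median 95.3) in control kidneys and 81.1 to 111 CPM (median 88.5) in RIAKI kidneys and was not called (log2 fold change -0.0097 ± 0.13). Both Efl1 and Eef2 were chosen after their values were seen.

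Termination factors had 2 of 3 higher, the release factor Etf1 (log2 fold change 1.01 ± 0.18) and Upf1 of nonsense-mediated decay (0.59 ± 0.20, lost in 3 alternatives). The mitochondrial translation factors, a separate system, had 0 of 8 higher and 1 lower, Tufm, the mitochondrial elongation factor Tu (log2 fold change -0.64 ± 0.19, lost with library totals only), with a median of -0.25. Whether the cytosolic and mitochondrial lists differ was not tested.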

How the data were processed

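Whole-kidney RNA was sequenced as 3′ tags with unique molecular indices (QIAseq UPX 3′ Transcriptome Kit). The authors demultiplexed the reads with bcl2fastq, removed duplicates by index, mapped to GRCm38 and counted with CLC Genomics Workbench. The deposited values are read counts per gene for exons, unique exon reads and introns, not normalized, and whether counting used strand is not given in the sources used here. Reads shared by paralogs or overlapping genes are therefore uncertain. The deposited tables also hold expression columns made from these counts, which were not used. Totals were 1579157 to 1911871 counts in RIAKI and 1673329 to 2073959 in control libraries. The labels do not say that the replicate number pairs the samples, and the main fit did not pair them.

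Genes with at least 10 counts over the 12 libraries were tested with edgeR 4.0.16 (quasi-likelihood, TMM on full totals, R 4.3.3), with Benjamini-Hochberg adjustment over all genes and a threshold of 0.05. CPM are scaled by TMM, the SE is the log2 fold change divided by the root of F, and 95% intervals are 1.96 SE wide on each side and assume a normal spread. On simulated counts with 13266 genes the test recovered 8 of 50 genes changed 1.5-fold, 47 of 50 at 2-fold and 50 of 50 at 4-fold, with 10 false calls. Fewer genes changed there than in the data, so its adjusted threshold was stricter. The changed genes were drawn only from those expected at 10 or more counts in a library, and all genes had 1 common dispersion. The recovery therefore does not hold for members with fewer reads, such as Eif2ak4 and Eif5a2. Ratios of 14 pairs used log2(CPM + 1) and a 2-sided exact permutation test. Alternatives were edgeR's exact test, DESeq2 1.42.0, limma voom 3.58.1, RLE factors, totals only, other filters, unique reads, no mitochondrial ribosomal RNA, the replicate number as a block, a threshold of 0.01, pseudocounts of 0.5 and 2, each library left out and, added after the data were seen, the libraries numbered 3 to 6 alone.

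Members, pairs, the 7 pathway lists and the 13 marker lists were chosen with earlier results of these data known. Members were described with levels where called with a log2 fold change of at least 0.58 in size or where their group has up to 5 genes, and up to 4 called genes of each pathway list were named by size of change. Rheb was named beyond this rule, after its value was seen.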

Additional observations from a re-analysis of the deposited data

Results flagged for a closer look

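In 4 of 108 groups of 6 kidneys a single value stood apart from the others by Dixon's criterion, where chance gives about 1 in 20. Eif1 was at 842 CPM in RIAKI replicate 1, and the next RIAKI kidney was at 665 CPM. Eif4h was at 67.7 CPM in the same kidney, and the next was at 47.4 CPM. That kidney also had the lowest share of mitochondrial ribosomal RNA, 34.1%, whose part in these values was not tested. Eif3f was at 18.3 CPM in control replicate 4, with the next control at 28.0 CPM. Eif4g3 was at 16.4 CPM in control replicate 3, with the next control at 23.6 CPM. Without RIAKI replicate 1 the call of Eif1 held and that of Eif4h was lost (adjusted p = 0.119), and without control replicate 3 the call of Eif4g3 held.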

How the results depend on the processing

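Over the alternatives, 22 to 28 members were higher and 2 to 3 lower, and 0 of the 30 called members changed direction. Pairs past the threshold numbered 7 to 8 except with the replicate number as a block, where a sign test over 64 patterns, with a smallest p of 0.0312, gave 0. Same-numbered libraries correlated by -0.169 to 0.322 in their deviations from the group means. For number 1, the control and the RIAKI library each correlated best with the other. Whether same-numbered libraries share more than the number was not tested. The block gave 28 higher and 3 lower members. Among the further pathway genes, 3 rather than 6 were lower with library totals only and 3 with the libraries numbered 3 to 6, where fewer samples were fitted. Members with higher intron reads numbered 1 with the replicate block, 1 with the totals and TMM of the exon reads, and 1 to 4 with a library left out. Of the 24 members not called, 11 changed direction under some alternative. Their log2 fold changes turned to -0.045 with limma voom, -0.011 with the replicate block and -0.082 with the libraries numbered 3 to 6 for Eif2a, to 0.0080 with library totals only for Eif3h, and with the libraries numbered 3 to 6 to -0.26 for Eif2ak1, -0.30 for Eif2b2, 0.073 for Eif2s3y, -0.056 for Eif3f and -0.094 for Eif4ebp3. With a library left out they ran from -0.075 to 0.22 for Eif2a, -0.12 to 0.20 for Eif2ak1, -0.0077 to 0.52 for Eif2ak4, -0.072 to 0.26 for Eif2b2, -0.038 to 0.24 for Eif2s3x, -0.18 to 0.0097 for Eif3k, -0.059 to 0.27 for Eif4ebp3 and -0.051 to 0.14 for Eif5b. Differences of log2 ratios turned to -0.13 for Eif5a/Eif5a2 and -0.0061 for Eif2ak2/Eif2ak3 with a pseudocount of 0.5, and with a library left out ran from -0.16 to 0.32, from -0.15 to 0.44, and for Eif4g1/Eif4g2 from -0.089 to 0.24. The cause of these moves was not tested. Library totals only moved the median of all genes by 0.058 on the log2 scale. Depth limits the precision of members with few reads, such as Eif2ak4 and Eif5a2, and of the intron reads.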
